A study of Mus musculus with 6 samples.

Results

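Type I interferon effector genes were examined in gastrocnemius muscle of mice with cachexia, the wasting that accompanies a tumor. The group comprised 10 genes, matched to the deposited rows by Entrez gene ID, namely Ifit1, Ifit3, Ifit3b, Isg15, Usp18, Rtp4, Cmpk2, Zbp1, Samd9l and Ifi27l2a. They were chosen by name with earlier results of these data known, so their shares beside those of all genes are descriptive only. All 10 were among the 13363 genes listed. Each was lower in every C26 muscle than in every control muscle, and the control mean was between 10.3 times (Samd9l) and 83.6 times (Ifit3) the C26 mean. Without control replicate 1, a comparison chosen after seeing the data, it was between 7.18 times (Usp18) and 17.7 times (Cmpk2), and 14.95 times for Ifit3. The controls themselves were far apart, with control replicate 1 the highest of the 3 for 9 of the 10 genes.

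The muscles came from male Balb/c mice, bought at 6 weeks of age and acclimated for 1 week. C26 mice (n = 3) had been inoculated under the skin of the flank with 500000 cells of colon-26, a mouse colon adenocarcinoma line whose tumors cause wasting, and control mice (n = 3) carried no tumor. No gene was altered in either group. The study housed 10 mice per group, and which 3 of them gave the sequenced muscles was not stated. Skeletal muscle markers were abundant in both groups, with Acta1, skeletal actin, at 10781 to 19513 FPKM in C26 muscles and 25506 to 27269 FPKM in controls. The sum of 10 such markers was 61750 to 96800 FPKM in C26 muscles and 137100 to 146300 FPKM in controls, without overlap, and 2 of them (Tnnc2 and Pvalb) were called lower, near the share of all genes, and 0 to 4 with a muscle removed. The myosin gene Myh1 had 298.97, 254.27 and 2555.4 FPKM in C26 muscles and 92.82, 330.88 and 117.67 FPKM in controls. These overlapped, and it was not called. Its higher C26 mean (1036 against 180.5 FPKM) rested on C26 replicate 3. FPKM scales the reads of a gene to its length and to the reads mapped in the library, so this level per length can be set side by side between genes.

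Type I interferons are secreted when a cell senses foreign nucleic acid. They bind a receptor made of IFNAR1 and IFNAR2, whose kinases JAK1 and TYK2 activate transcription factors, and these enter the nucleus with IRF9 and bind the interferon-stimulated response element (ISRE) upstream of effector genes. The effectors are kept low in most resting tissue and act on viral RNA, on protein synthesis, on nucleotides or on the survival of the cell.

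Upstream sequences are shown because an ISRE is the element that these genes are known for. RefSeq windows from 250 bases before to 50 bases after the start of transcription (build GRCm38.p6) were matched for 6 of the 10 genes. The letters GAAA, then 2 bases of any kind, then GAAA were searched on both strands, with overlapping matches counted, and stood in 4 of the 6 windows, against 3.44% of all 32851 windows and 3.99% of all 27025 genes. Capitals mark the matches, which begin and end with TTTC where the element lies on the other strand. The windows are chr4:156200769-156201068 on the minus strand for Isg15 and, on the plus strand, chr19:34640639-34640938 for Ifit1, chr19:34583279-34583578 for Ifit3 and chr19:34607707-34608006 for Ifit3b.
Isg15: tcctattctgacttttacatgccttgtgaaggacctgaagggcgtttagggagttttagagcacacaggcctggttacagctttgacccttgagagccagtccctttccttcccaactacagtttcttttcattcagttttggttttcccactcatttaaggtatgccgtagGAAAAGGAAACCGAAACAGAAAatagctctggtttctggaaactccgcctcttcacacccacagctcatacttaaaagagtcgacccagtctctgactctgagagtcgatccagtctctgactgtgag
Ifit1: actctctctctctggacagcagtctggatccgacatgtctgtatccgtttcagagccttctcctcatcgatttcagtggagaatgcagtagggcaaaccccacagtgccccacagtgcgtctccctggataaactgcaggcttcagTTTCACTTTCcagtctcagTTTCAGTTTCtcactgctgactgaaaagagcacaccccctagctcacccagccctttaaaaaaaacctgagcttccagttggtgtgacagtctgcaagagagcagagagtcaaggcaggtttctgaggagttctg
Ifit3: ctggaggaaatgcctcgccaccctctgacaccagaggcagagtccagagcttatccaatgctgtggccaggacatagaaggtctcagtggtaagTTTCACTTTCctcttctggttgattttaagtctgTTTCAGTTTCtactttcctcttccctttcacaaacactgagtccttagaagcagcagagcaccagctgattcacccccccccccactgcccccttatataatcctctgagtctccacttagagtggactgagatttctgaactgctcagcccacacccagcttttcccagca
Ifit3b: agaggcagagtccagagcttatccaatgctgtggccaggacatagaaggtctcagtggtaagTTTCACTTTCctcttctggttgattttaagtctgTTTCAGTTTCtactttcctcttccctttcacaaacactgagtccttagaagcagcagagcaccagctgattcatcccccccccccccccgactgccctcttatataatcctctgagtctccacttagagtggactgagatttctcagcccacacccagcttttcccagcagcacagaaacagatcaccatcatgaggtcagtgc
Isg15 had 3 overlapping matches, and Ifit1, Ifit3 and Ifit3b had 2 each with the same letters, GAAAGTGAAA and GAAACTGAAA read on the minus strand. The windows of Ifit3 and Ifit3b were 94.5% identical over 274 aligned columns. Both begin inside the gene spans, which start at 34583119 and 34607530, so they rest on later starts of transcription than the spans. No match was found in the windows of Cmpk2 and Samd9l.

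The IFIT genes encode proteins that bind viral RNA and form complexes with one another. Ifit3 and Ifit3b lie beside Ifit1 on chromosome 19, within 66891 bases (34583119 to 34650009). Ifit3 had 0.52, 0.21 and 0.21 FPKM in C26 replicates 1 to 3 and 69.22, 7.59 and 1.78 FPKM in control replicates 1 to 3. Its controls spanned a 38.9-fold range, the widest of the 10 genes, and the lowest of them was 3.42 times the highest C26 value. Ifit3b had 0.29, 0.20 and 0.80 FPKM in C26 muscles and 26.55, 5.21 and 2.61 FPKM in controls. Ifit1 had 0.25, 0.09 and 0.24 FPKM in C26 muscles and 16.22, 3.03 and 0.68 FPKM in controls. In all of them control replicate 1 was the highest muscle and control replicate 3 the lowest control. Stretches of 50 bases, the read length, were shared with Ifit3b at 51.2% of positions of the Ifit3 transcript, so the split of reads between this pair is uncertain, and 7.14% of the Ifit1 transcript was shared with other genes.

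Isg15 encodes a ubiquitin-like modifier that is joined to other proteins, and Usp18 encodes the protease that removes it and that also damps signaling at IFNAR2. Isg15 (chromosome 4, 156199424 to 156200818, 2 exons) had 1.0, 0.37 and 0.85 FPKM in C26 muscles and 71.17, 10.30 and 4.07 FPKM in controls. Usp18 (chromosome 6, 121245906 to 121270917, 11 exons) had 0.41, 0.64 and 0.28 FPKM in C26 muscles and 13.16, 3.48 and 2.89 FPKM in controls. The groups did not overlap for either gene, and control replicate 1 again stood above the others, 17.5-fold above control replicate 3 for Isg15 and 4.55-fold for Usp18.

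Ifi27l2a, which encodes a small hydrophobic membrane protein, was the most abundant of the 10 genes in both groups. It had 5.94, 6.57 and 2.16 FPKM in C26 muscles and 243.81, 81.93 and 43.48 FPKM in controls. Rtp4, a Golgi chaperone of receptors, had 0.66, 0.89 and 0.56 FPKM in C26 muscles and 25.63, 7.45 and 3.06 FPKM in controls. Both followed the same order of controls as the IFIT genes.

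Cmpk2 encodes a mitochondrial nucleotide kinase and lies 12664 bases from Rsad2, another antiviral gene, on chromosome 12. It had 0.17, 0.11 and 0.02 FPKM in C26 muscles and 9.90, 2.57 and 0.97 FPKM in controls. Zbp1, a sensor of Z-form nucleic acids that can start cell death, had 0.32, 0.09 and 0.20 FPKM in C26 muscles and 19.51, 1.11 and 4.18 FPKM in controls. Here control replicate 2 was the lowest control. Samd9l, an interferon-induced gene that restrains cell growth, had 0.82, 0.54 and 0.35 FPKM in C26 muscles and 7.14, 2.13 and 8.28 FPKM in controls. It was the gene of the group that was highest in control replicate 3, by a narrow margin over control replicate 1.

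Ordered by level, the control means ran from 123 ± 106 FPKM (SD, n = 3) for Ifi27l2a to 4.48 ± 4.76 FPKM for Cmpk2. In C26 muscles they ran from 4.89 ± 2.39 FPKM for Ifi27l2a to 0.10 ± 0.08 FPKM for Cmpk2, and 9 of the 10 genes had a C26 mean below 1 FPKM. The ranges of neighbors in either order overlapped at every step, except that Ifi27l2a was above Isg15 in all C26 muscles without overlap. The SD of the controls exceeded their mean for 6 genes, while that of the C26 muscles did so for 0 genes.

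**Figure D1:**
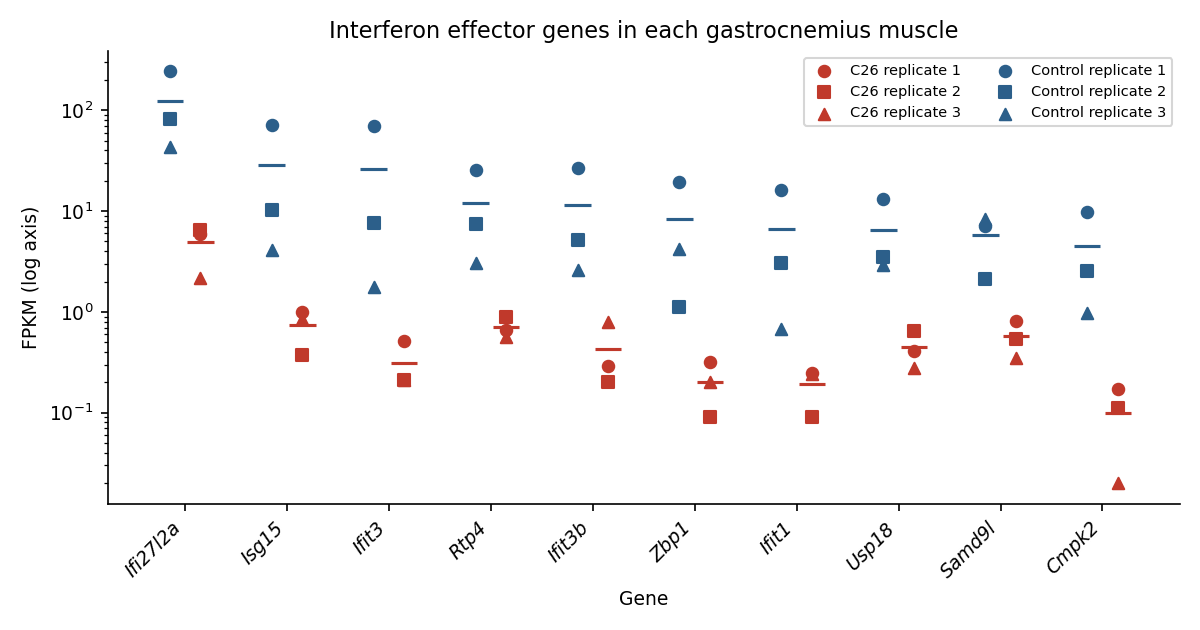
FPKM (log axis) of the 10 genes in each muscle, ordered by control mean, with control muscles in blue, C26 muscles in red, a symbol for each replicate and a bar at the group mean. All 3 control points lie above all 3 C26 points for every gene, and the control circle (replicate 1) is the highest for 9 of 10. The C26 square and triangle coincide at 0.21 for Ifit3.

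The groups were compared with limma on log2(TPM + 1), where TPM are the FPKM of a sample rescaled to a common sum and TMM is a scaling by trimmed mean log ratios. A pseudocount of 1 understates the change of genes this low. At an adjusted p under 0.05, 8 of the 10 genes were lower in C26 muscles and 0 were higher, against 14.5% of all genes lower and 19.4% higher. With FPKM as deposited, the calls over all genes were 2504 lower and 1678 higher in place of 1932 and 2589. At the added criterion of a fold change above 4, the same 8 genes were called lower and 0 higher, against 1.73% of all genes lower and 1.76% higher. On FPKM as deposited, which summed to less in C26 muscles, control muscles lay above C26 muscles without overlap for 10 of 10 genes. The same held for 34.6% of all genes, and the reverse for 18.7%. The median log2 difference was -2.66 over the 10 genes and -0.05 over all genes. At an unadjusted p under 0.05 (limma), 10 of the 10 genes were lower and 0 higher, against 22% of all genes lower and 25.1% higher.

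Ifi27l2a fell, with a log2 difference (C26 minus control) of -4.05 (SE 0.66, adjusted p = 0.00808, limma with Benjamini-Hochberg adjustment over all genes). Isg15 fell by 3.39 on the log2 scale (SE 0.94, adjusted p = 0.0341, limma). The other genes that fell were Ifit3b (log2 difference -2.85, SE 0.75), Rtp4 (-2.67, SE 0.66), Zbp1 (-2.65, SE 0.79), Usp18 (-2.35, SE 0.50), Cmpk2 (-2.33, SE 0.63) and Samd9l (-2.16, SE 0.41), with adjusted p (limma) from 0.0117 for Samd9l to 0.0430 for Zbp1. Ifit3 had a log2 difference of -3.49 and did not pass the test (SE 1.12, adjusted p = 0.0534, limma), and without control replicate 1 its log2 difference was -2.19. The order of the genes depended on the pseudocount, since at 0.1 the log2 difference was -4.64 for Ifit3 and -4.21 for Ifi27l2a. Ifit1 did not pass it either, with a log2 difference of -2.33 (SE 0.84, adjusted p = 0.0737, limma). The genes with the widest control range were thus those outside the threshold.

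The number of calls depended on single muscles. Without control replicate 1, the highest muscle, 8 of the 10 genes were called lower (5.43% of all genes), and 2 of them (Isg15 and Ifi27l2a) had a fold change above 4. Without control replicate 3, 9 were called (14.7% of all genes), Zbp1 being lost and Ifit3 and Ifit1 gained. Without control replicate 2, 4 were called (Usp18, Zbp1, Samd9l and Ifi27l2a, against 10.5% of all genes). Without C26 replicate 1, 2 were called (Samd9l and Ifi27l2a), without C26 replicate 2 Usp18 as well, and without C26 replicate 3 Ifit3b as well as these 3, and the share of all genes called lower was 5.01%, 7.08% and 16.2%. Ifi27l2a and Samd9l were called lower in all 6 of these fits and Usp18 in 5. With quantile normalization 3 genes were called lower (11.8% of all genes), and with a pseudocount of 0.1 all 10 were (16.9% of all genes). All 10 differences were negative under all 13 settings tried.

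**Figure D2:**
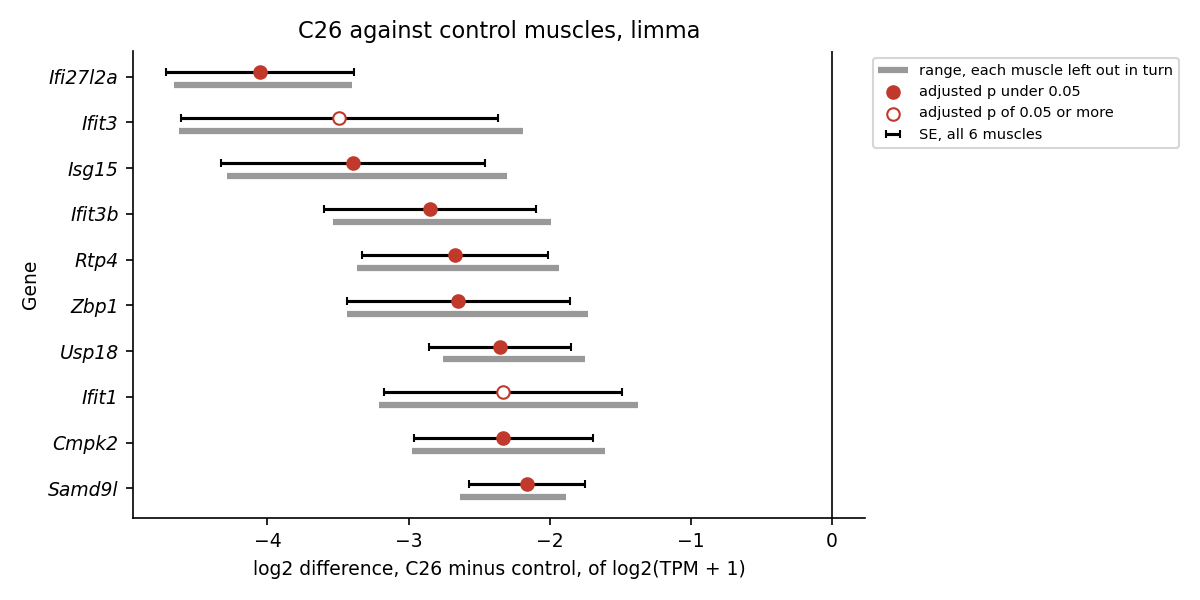
log2 difference between C26 and control muscles for each of the 10 genes (x axis, log2(TPM + 1) scale), with the SE from limma as black bars and the range over fits that each left out 1 muscle as grey bars. All points and ranges lie below 0, from -4.05 for Ifi27l2a to -2.16 for Samd9l, and the open points are Ifit3 and Ifit1.

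The precision of the low values was judged from their spacing. Low FPKM of short genes with 1 coding transcript fell near whole multiples of a step, which put 1 read at 0.0546 to 0.0744 FPKM per kilobase and the depth at about 13400000 to 18300000 mapped reads per muscle. Between 51.7% (C26 replicate 1) and 80.6% (control replicate 3) of these values were within 0.2 of a whole read, where 40% would be if they were spread evenly, so the estimate is weakest for C26 replicate 1. On this scale, Isg15 rested on about 12.95, 4.04 and 8.23 reads in C26 muscles and 844, 120 and 38.7 reads in controls. Of the 30 values of the 10 genes in C26 muscles, 13 stood at 10 reads or fewer, and Cmpk2 in C26 replicate 3 at about 1 read (0.863). The lowest control value, Ifit1 in control replicate 3, stood at about 23.8 reads. Folds built on the C26 means of the lowest genes thus rest on few reads, and these estimates cover counting error only.

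The differences among control muscles were set beside markers of cell types. Summed over the 10 genes, the level was 502, 125 and 72.0 FPKM in control replicates 1 to 3 and 10.4, 9.71 and 5.67 FPKM in C26 replicates 1 to 3. Control replicate 1 exceeded each of the other controls by more than 2 times for 9 of the 10 genes, as for 2.31% of all genes. The order control replicate 1, 2, 3 held for 8 of the 10 genes and for 18.6% of all genes.

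Fat cell markers shared that order, 10 of 10, with sums of 5581, 2705 and 755 FPKM in controls and 309 to 488 FPKM in C26 muscles, and 6 of the 10 were called lower (60%, against 14.5% of all genes), each of them in 1 or 2 of the 6 fits with a muscle removed. Over those fits the number of fat cell markers called ran from 0 (without C26 replicate 1 or 2 or control replicate 2) to 10 (without control replicate 3). Adipoq, the fat cell hormone adiponectin, had 3.11, 2.06 and 0.18 FPKM in C26 muscles and 176.42, 79.29 and 11.54 FPKM in controls. Fibroblast markers summed to 750 to 1130 FPKM in controls and 293 to 477 FPKM in C26 muscles, in the same order of controls, with 6 of 10 called lower (also 60%) and 3 without C26 replicate 1 or 2 or control replicate 1 or 2, where 5.01% to 10.5% of all genes were called. Endothelial markers, 10 listed of 10, summed to 99.1 to 156 FPKM in controls and 84.9 to 89.5 FPKM in C26 muscles, with 2 called lower, near the 14.5% of all genes, and 0 to 4 with a muscle removed. These sums are not scaled for the lower FPKM totals of C26 muscles (531061 to 585169 against 626992 to 688300). Their lack of overlap is thus not read as a difference. The part of these cell types in the result was not tested. In whole muscle, fewer cells of a type and less RNA per cell cannot be told apart.

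Markers of immune cells did not follow the same order. Macrophage and monocyte markers, 11 listed of 12, summed to 66.4 to 260 FPKM in controls and 60.2 to 323 FPKM in C26 muscles, which overlapped, and 1 of them, Ccr2, was called lower, a share below that of all genes and in 2 of the 6 fits with a muscle removed. Most of the highest sum, in C26 replicate 2, was Cd68 at 246.65 FPKM. Control replicate 3 held most of the lymphocyte RNA, with the B cell gene Cd79b at 134 FPKM against 0.05 to 0.82 FPKM in the other muscles and the pan-leukocyte gene Ptprc at 40.1 against 0.23 to 0.81 FPKM. Most lymphocyte markers were not listed (8 of 10 for B cells and 10 of 11 for T and NK cells). Of the dendritic cell markers, 8 of 10 were listed, with sums of 28.5 to 164 FPKM in controls and 11.5 to 18.5 FPKM in C26 muscles, and 2 were called lower (25%, against 14.5% of all genes), with 0 called without C26 replicate 2 or control replicate 1 and 1 without C26 replicate 1. Most of the sum in control replicate 1 was Bst2 at 145 FPKM, itself interferon-induced. Neutrophil markers, 5 listed of 8, summed to 1.09 to 3.20 FPKM in controls and 7.06 to 7.36 FPKM in C26 muscles. In these, S100a8 and S100a9 rose, with log2 differences of 1.92 and 1.86, while Cxcr2, Csf3r and Mmp9 overlapped between the groups (-0.27, 0.10 and 0.08). Red cell markers, 5 listed of 8, summed to 329 to 510 FPKM in controls and 616 to 1189 FPKM in C26 muscles, with 4 called higher (80%, against 19.4% of all genes, but 1 without C26 replicate 1 or control replicate 1, 2 without control replicate 2 or 3), and their sums had the control order of the effectors. Their part in the result was not tested.

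**Figure D3:**
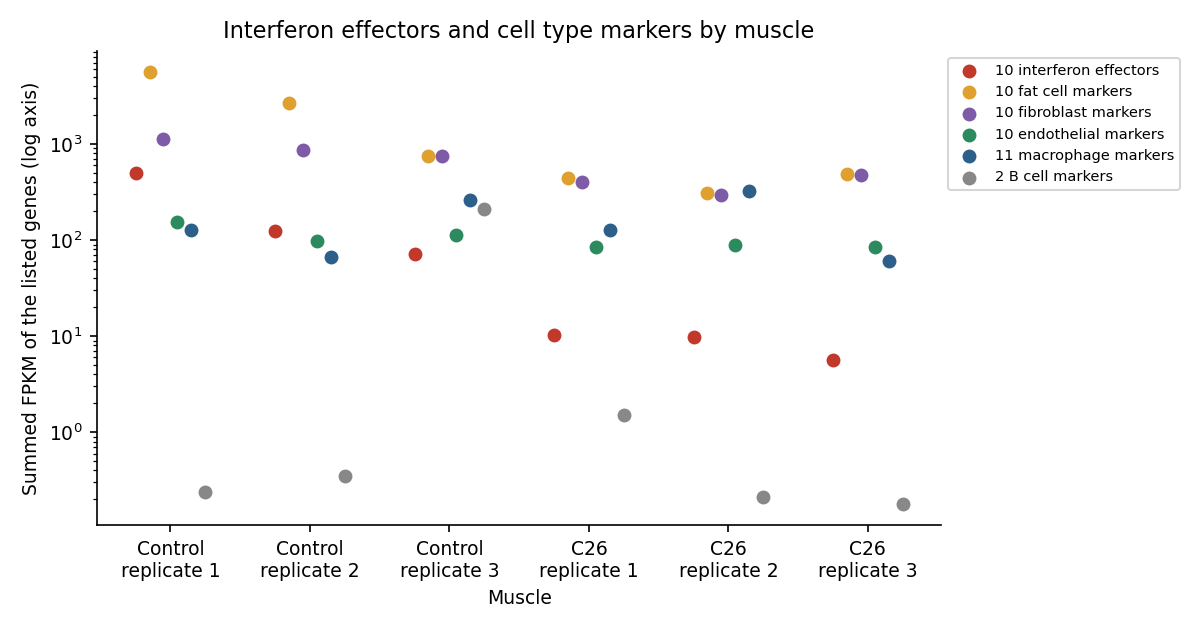
Summed FPKM (log axis) of the 10 interferon effectors and of 5 marker lists in each muscle, 1 point per list and muscle. The red points run from 502 in control replicate 1 to 5.67 in C26 replicate 3, the fat cell points show the same order among controls, and the B cell point stands high in control replicate 3.

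The wider pathway was read from lists of other genes, which were chosen with earlier results of these data known. Interferon genes themselves (Ifnb1, Ifng and 9 others) were not among the listed genes, which all have values above 0 in every muscle. Of 53 other antiviral effectors listed (of 64), 24 were lower (45.3%, against 14.5% of all genes) and 0 higher (19.4% of all genes) in C26 muscles at an adjusted p under 0.05 (limma, and 36 were lower and 2 higher at an unadjusted p under 0.05), with a median log2 difference of -1.54. Of these 53, 6 were called lower without C26 replicate 1 (5.01% of all genes), 7 without C26 replicate 2 (7.08%) and 15 without C26 replicate 3 (16.2%). The largest falls that passed were those of Sp110 (log2 difference -2.83), Sp100 (-2.77), which encode nuclear body proteins, the secreted Lgals3bp (-2.45), the lectin gene Lgals9 (-1.97) and Parp14 (-1.86). With each muscle removed in turn, Sp100 was called in all 6 fits, Sp110 in 2 and the other 3 in 4. Ifit2 had 0.48, 0.49 and 0.40 FPKM in C26 muscles and 18, 2.89 and 1.63 FPKM in controls, and just missed the threshold (log2 difference -2.18, adjusted p = 0.0591, limma). Oas2 and Rsad2 did not pass, with log2 differences of -1.31 and -1.21, and Mx1 was not listed.

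The enzymes that attach ISG15 were examined beside Isg15 and Usp18. Of 4 listed, 2 fell (50%, against 14.5% of all genes) and 0 rose, against 19.4% of all genes (limma, and 0 were higher at an unadjusted p under 0.05). Uba7, the activating enzyme, had 0.77, 0.59 and 0.55 FPKM in C26 muscles and 13.40, 2.25 and 7.58 FPKM in controls, a log2 difference of -2.32 (SE 0.50, adjusted p = 0.0165, limma). The ligase gene Trim25, also counted among the effectors, fell by 0.69 on the log2 scale. With each muscle removed in turn, Uba7 was called in 4 of 6 fits and Trim25 in 1. Ube2l6, the conjugating enzyme, and Herc6, the main mouse ligase, had log2 differences of -1.33 and -1.49 and did not pass (adjusted p = 0.0970 and 0.0674, limma). On FPKM as deposited, all 4 were without overlap between the groups, as were 34.6% of all genes with controls higher.

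Among 20 listed receptors, kinases and transcription factors, 9 fell (45%, against 14.5% of all genes) and 2 rose (10%, below the 19.4% of all genes). Stat2 and Irf9, which act at the ISRE, fell, with log2 differences of -2.02 (SE 0.46, adjusted p = 0.0184, limma) and -1.69. Stat2 had 1.06, 0.83 and 0.66 FPKM in C26 muscles and 13.85, 3.15 and 4.61 FPKM in controls. Socs1, an inhibitor of JAK kinases, and Irf1 fell by 2.74 and 2.16 on the log2 scale. With each muscle removed in turn, Socs1 was called in 1 of 6 fits, Stat2 in 4, and Irf9, Irf1 and Ifnar2 in all 6. Ifnar2 fell by 1.14 (SE 0.19, adjusted p = 0.00840, limma), while Ifnar1 had 2.5 to 3.14 FPKM in C26 muscles and 2.33 to 4.91 FPKM in controls, a log2 difference of -0.02 (adjusted p = 0.940, limma). The 2 genes that rose, a count no higher than over all genes, were Ptpn2, a phosphatase that acts on JAK and STAT proteins (log2 difference 1.10, adjusted p = 0.00760, limma), and Irf2, a repressor of interferon genes (0.76, adjusted p = 0.0222, limma), of which Irf2 was called in 2 of the 6 fits with a muscle removed. Control replicate 3 was the highest control for 14 of these 20 genes, for 1 of the 10 effectors and for 45.65% of all genes.

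Among 16 sensors and their adaptors, 4 were lower (25.0%, against 14.5% of all genes) and 3 higher (18.75%, near the 19.4% of all genes). Irf7, the factor that amplifies interferon production, had 1.0, 0.81 and 1.22 FPKM in C26 muscles and 93.18, 9.26 and 5.11 FPKM in controls, the same order of controls as Isg15 (log2 difference -3.27, SE 0.97, adjusted p = 0.0426, limma). With each muscle removed in turn, it was called in 2 of 6 fits and Dhx58 in 2 of 6, and Ddx58 in all 6. The RNA sensor genes Ddx58 and Dhx58 fell by 1.74 and 1.68 on the log2 scale. Ticam1, Mavs and Tbk1, which relay the signal of sensors, rose by log2 differences of 1.77, 1.32 and 0.83 and were called in all 6. Mavs had 30.07, 24.61 and 20.46 FPKM in C26 muscles and 11.19, 12.79 and 9.64 FPKM in controls.

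Of 5 partners of Zbp1 in cell death, 1 was called lower, near the 14.5% of all genes. It was Casp8 (log2 difference -1.25, adjusted p = 0.0398, limma, called in 2 of 6 fits with a muscle removed). Of these 5 partners 0 rose, against 19.4% of all genes (0 also at an unadjusted p under 0.05). Ripk3 and Mlkl did not pass, with 0.23 to 0.42 and 0.28 to 0.41 FPKM in C26 muscles and 0.28 to 5.02 and 0.86 to 3.34 FPKM in controls. Of 6 enzymes of nucleotide metabolism (Samhd1, which breaks deoxynucleotides down, is also counted among the effectors), 2 were called lower (33.3%, against 14.5% of all genes). Dck and Dtymk fell by 1.31 and 0.71 on the log2 scale (called in 4 and 3 of the 6 fits with a muscle removed). Of these 6 enzymes 0 rose, against 19.4% of all genes (limma, and 0 at an unadjusted p under 0.05). Cmpk1, the cytosolic counterpart of Cmpk2, had 9.46 to 24.1 FPKM in C26 muscles and 13.2 to 17.2 FPKM in controls, a log2 difference of 0.15 (adjusted p = 0.700, limma).

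**Figure D4:**
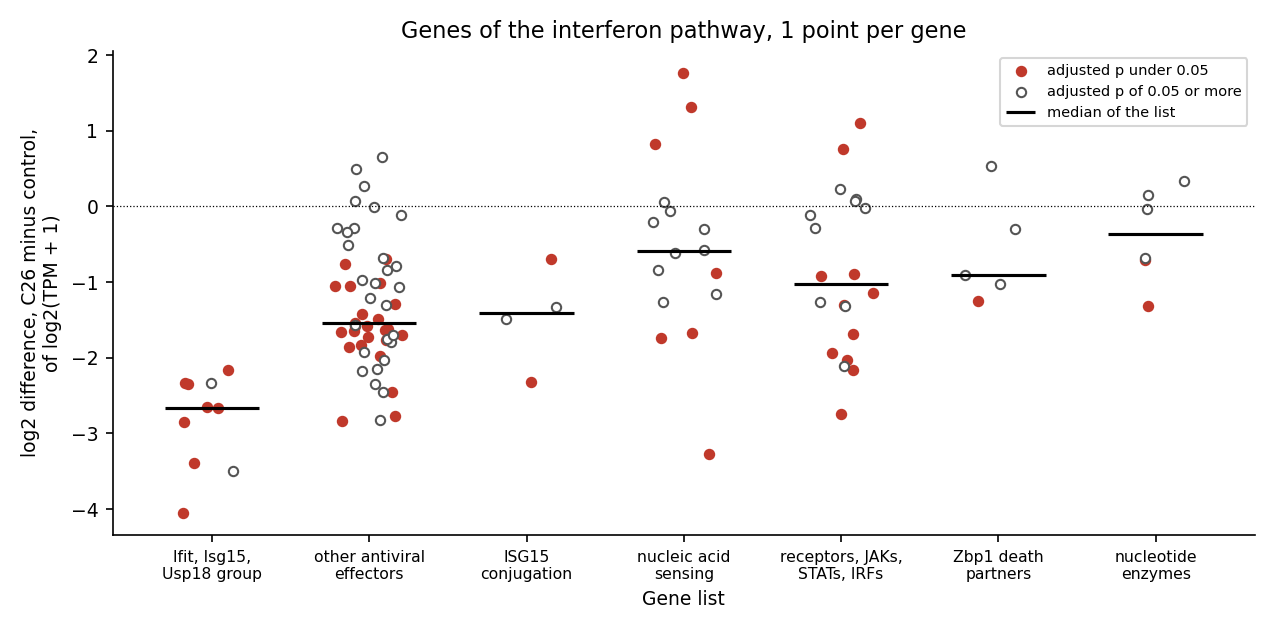
log2 difference between C26 and control muscles (y axis, log2(TPM + 1) scale) for each listed gene of 7 lists, with filled points for an adjusted p under 0.05 in limma and a bar at the median. The 10 effectors lie between -4.05 and -2.16 with a median of -2.66, against medians of -1.54, -1.41, -0.59, -1.03, -0.90 and -0.36 for the other lists from left to right.

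The genes most like the effectors were sought over the 6 muscles by the root mean square difference between centred log2 profiles, among 11223 genes with a mean TPM of at least 1. Ly6e, an interferon-induced surface protein gene, was the nearest at 0.13 log2 units from the mean profile of the 10 genes, nearer than any of the 10 (0.24 for Rtp4 to 0.95 for Samd9l). It had 4.76, 4.27 and 3.09 FPKM in C26 muscles and 120.62, 20.69 and 16.25 FPKM in controls. The interferon-induced GTPase genes Gbp3 and Gbp7 came next at 0.28 and 0.31, then Ifit2 and Lgals3bp at 0.34 each. Their difference between the groups follows from how they were chosen.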

How the data were processed

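The authors isolated total RNA, removed rRNA with RNaseH, sequenced single-end reads of 50 bases on a BGISEQ instrument, filtered them, aligned them to GRCm38.p5 with bowtie2 and estimated FPKM by RSEM. The submitters' processing notes list HISAT2 2.0.4, Bowtie2 2.2.5, RSEM 1.2.12 and the build mm9, so the build is stated in both ways. The extraction protocol in the labels names infected human cells in place of muscle. The deposited FPKM are given to 2 decimals, and all 13363 genes are above 0 in all 6 samples. Symbols were matched to 13327 Entrez IDs. FPKM summed to 531061 to 585169 in C26 and 626992 to 688300 in control muscles.

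FPKM were rescaled to TPM, divided by TMM factors (unweighted, trimming 30% by log ratio and 5% by mean level) and compared as log2(TPM + 1) with limma 3.58.1 under R 4.3.3 over all genes, with Benjamini-Hochberg adjustment and an adjusted p threshold of 0.05. The replicates are separate samples in the labels, and the p-values measure the spread between these. The 3 against 3 design gives a smallest exact permutation p of 0.1 for a single value. The fits were tested on simulated data. Members and lists were chosen with earlier results of these data known. Genes named are the 10 members, up to 5 called genes per pathway list with the largest differences, pathway genes fixed by name (such as Irf9, Irf7 and Uba7), the nearest 5 profiles, and others picked after their values were seen (Tbk1, Irf2, Ptpn2, Cmpk1, Tnnc2, Pvalb, Myh1, Ccr2, Cd68, Cd79b, Bst2, Adipoq and neutrophil genes). Promoters and gene positions are those of RefSeq (GRCm38.p6), and transcripts for exons and shared 50-base stretches are those of GENCODE for GRCm38. Alternatives were a pseudocount of 0.1, a filter at a mean TPM of 1, no TMM, FPKM as deposited, quantile normalization, an intensity trend, the replicate number as a block, and each muscle left out. Read counts were not analysed here, and 1 gene fixed by name is not reported here.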

Additional observations from a re-analysis of the deposited data

How the results depend on the processing

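The log2 differences of the 10 genes kept their sign under all 13 alternatives. Over the 7 alternatives with all muscles, 8 single-gene calls were lost and 4 gained, and in the 6 fits with a muscle removed 20 were lost and 2 gained. The count of the 10 genes called lower, 8, became 6 with FPKM as deposited (18.7% of all genes) and 3 with quantile normalization (11.8%). It became 7 with the replicate block, 9 with the intensity trend or the TPM filter, and 10 with a pseudocount of 0.1. With each muscle left out it was 2 to 9, against 5.01% to 16.2% of all genes. With a fold change above 4 it was 5 with FPKM as deposited, 2 with quantile normalization and 2 to 8 with each muscle left out. The calls higher stayed at 0 (0 to 0 without each muscle).

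Of the other effectors, 24 lower became 6 to 32 without each muscle, and 0 higher became 1 with quantile normalization and 0 to 1 without each muscle. Over the fits without each muscle, 669 to 2160 of all 13363 genes (5.01% to 16.2%) were called lower and 1127 to 3311 higher. For the 16 sensing genes, 4 lower became 2 with FPKM as deposited (18.7% of all genes) and 1 with quantile normalization (11.8%). It was 2 with the replicate block (9.24%) and 1 to 6 without each muscle. With FPKM as deposited or quantile normalization, sensing genes were thus called lower no more often than all genes. For receptors, kinases and factors, 9 lower became 4 to 9 without each muscle, and 2 higher became 1 with FPKM as deposited, quantile normalization and the replicate block, and 1 to 2 without each muscle. The cause was not tested.

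Samples with the same replicate number did not deviate together (r = -0.04, -0.08 and -0.11 across genes for numbers 1, 2 and 3). The labels do not state whether they were paired. Deviations within groups of 3 sum to 0, so these correlations cannot decide it. With the replicate block, 7 of the 10 genes were called lower (9.24% of all genes), Ifit3b being lost (adjusted p = 0.0598, limma). Depth limits the C26 values, 13 of 30 of which rest on 10 estimated reads or fewer.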
